A study of Mus musculus with 21 samples.

Results

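The genes described here encode the proteins of the cytosolic ribosome. They were taken as the count-table identifiers whose mouse symbol begins with Rpl or Rps and a digit, or is Rplp0, Rplp1, Rplp2 or Rpsa, without pseudogenes named -ps (179 identifiers) and without the Rps6k kinases (10 identifiers). Of 47069 identifiers, 91 matched, and 83 reached a mean of 10 CPM (counts scaled to a common library total) in at least 1 group. The 8 left out were Rpl10l, Rpl37rt, Rpl39l, Rpl3l, Rps12l1, Rps23rg1, Rps27rt and Rps3a3, whose highest group mean was 0.957 CPM (Rpl37rt). Just inside the limit lay Rps4l with a highest group mean of 11.9 CPM, the identifier matched to Rpl24 with 13.8 CPM and Rps3a2 with 17.3 CPM. The 83 members were 42 genes of the large subunit, 31 of the small subunit, the 3 of the P stalk, 5 paralogs (Rpl7l1, Rpl22l1, Rpl36al, Rps27l and Rps4l, the last a transcribed pseudogene in RefSeq), Rps3a2, which RefSeq holds as a pseudogene, and Rps19bp1, which binds Rps19 but is not a ribosomal protein. The identity of the Rpl24 identifier is uncertain, because the gene tables tie it to more than 1 symbol. Its longest annotated coding sequence has 3153 bases, against 1272 for Rpl13a, the next longest of the large subunit. Its values may therefore be those of another gene, although it is counted among the 42. No identifier matched Rpl41. All 83 passed the filter on low counts.

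RNA was sequenced from cultured wild-type C57BL/6 macrophages, grown from bone marrow of mice 8 to 10 weeks old with the growth factor M-CSF. There were 7 groups of 3 libraries. IL_TNF_24h and IL_TNF_6h received IL4 and IL13 with TNF for 24 h and 6 h, IL_24h and IL_6h received IL4 and IL13, TNF_24h and TNF_6h received TNF, each at 10 ng/ml, and Ctrl_0h was untreated at 0 h. IL4 and IL13 drive the alternative state of macrophages, and TNF is an inflammatory cytokine. No untreated library at 6 or 24 h was analysed here, so treatment and time in culture cannot be told apart in any comparison with Ctrl_0h. Whether replicate libraries were drawn from different mice or dishes is not in the labels, and p-values therefore measure the spread between these libraries, which may be technical.

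A ribosome consists of a small subunit, which reads the messenger RNA, and a large subunit, which joins amino acids, and the P stalk of the large subunit recruits elongation factors. Each subunit needs its proteins in about equal numbers, and their messenger RNAs are short, very abundant, and made together from genes spread over the genome. Many begin at a C followed by a run of pyrimidines (C or T), the TOP element, through which mTORC1 and Larp1 control their translation and stability. In macrophages and other cells, growth factors and Myc raise the making of ribosomes.

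The sequences around transcription starts are shown because a start in a pyrimidine run is known for many genes of this family, although most annotated starts here lacked one. RefSeq's table for GRCm38.p6 held a start for 61 of the 83 members. Of these, 13 (21.3%) started at a C inside a run of at least 5 pyrimidines counted from the start, against 3.01% of all 27025 genes of the table. The motif CTCTTT on the sense strand within 50 bases of the start was found at 31.1% of members and 4.68% of all genes, and CTTTCC in the same window at 31.1% and 5.43%. The motif CCGGAAG on either strand of the 300 bases around the start was found at 39.3% of members and 9.93% of all genes. In the windows below, 15 bases stand before the start and 15 from it onward, and capitals mark the pyrimidine run that begins at the start.
Rps6, chr4:86857353-86857382, minus strand: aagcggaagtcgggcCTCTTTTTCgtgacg
Rplp2, chr7:141447636-141447665, plus strand: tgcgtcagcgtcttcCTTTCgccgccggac
Rpl38, chr11:114668565-114668594, plus strand: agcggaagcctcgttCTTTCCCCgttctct
Rpl14, chr9:120571502-120571531, plus strand: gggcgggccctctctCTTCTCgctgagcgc
Rpl15, chr14:18270972-18271001, minus strand: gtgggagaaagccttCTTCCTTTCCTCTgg
Rps27, chr3:90213634-90213663, minus strand: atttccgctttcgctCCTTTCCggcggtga
The annotated starts of Rpsa, which fell most after TNF at 6 h, and of the paralogs Rpl22l1 and Rpl7l1, which moved in their own ways, held no such run, which says only that these letters are not at this position.
Rpsa, chr9:120127751-120127780, plus strand: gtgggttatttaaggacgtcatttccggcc
Rpl22l1, chr3:28805493-28805522, plus strand: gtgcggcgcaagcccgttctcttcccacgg
Rpl7l1, chr17:46782642-46782671, minus strand: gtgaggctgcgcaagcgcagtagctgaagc

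Library totals were 28063252 to 48654300 counts. Ctrl_0h replicate 2 had the lowest total, yet 27761 genes had a count in it, against 16996 to 20631 in the other libraries. The cause was not tested. Macrophage markers (8 of 8 present) summed to 12000 to 40200 CPM per library, while neutrophil markers stayed at 0.281 to 3.92 CPM, fibroblast markers at 0.454 to 11.8 CPM, erythroid markers at 0.0662 to 5.85 CPM, T and NK cell markers at 0 to 1.69 CPM and eosinophil, mast cell and basophil markers at 0 to 1.99 CPM. The highest sums of neutrophil, erythroid, T and NK cell, and eosinophil, mast cell and basophil markers were all in Ctrl_0h replicate 2. Fcer1a and Lum were at 0 throughout. B cell markers summed to 0.532 to 93.6 CPM, and Ighm averaged 36.9 CPM in TNF_24h and 84.2 CPM in Ctrl_0h, the groups with the highest sums. Across all libraries Cd79a reached 5.65, Cd79b 4.01 and Ms4a1 0.243 CPM. Dendritic cell markers summed to 0.587 to 31.0 CPM, highest in IL_TNF_24h. The part of these markers in the results was not tested.

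The libraries fall into 3 sets by the levels of 3 genes, and these sets run along with IL. Xist, the long RNA that silences an X chromosome, was 0 to 0.145 CPM in the 6 libraries with IL at 24 h, 562 to 1010 CPM in the 6 with IL at 6 h and 162 to 283 CPM in the 9 without IL. The Y-linked Ddx3y was 41.8 to 50.9 CPM in the first set and 0 in both others, and Ifi202b was 30.3 to 64.2 CPM with IL at 6 h and 0 in both others. Comparisons of IL groups with Ctrl_0h, and of 24 h with 6 h under IL, therefore cross these sets, and treatment and set cannot be told apart there. TNF against Ctrl_0h, and IL with TNF against IL alone at one time, lie within a set.

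In Ctrl_0h replicate 2 and TNF_24h replicates 2 and 3, 15 genes were at least 4 times lower than in the lowest of the other 18 libraries, among genes with at least 2 CPM in each of those 18. One member, Rpl12 of the large subunit, was among them. Its CPM, with library totals scaled by TMM (the trimmed mean method of edgeR) as for all CPM below, were 995, 32.4 and 23.7 in TNF_24h and 557 to 694 in TNF_6h, against 1093, 49.6 and 1040 in Ctrl_0h. Rpl12 thus gave no usable contrast with these groups, and it had no call in IL_6h against Ctrl_0h either (log2 fold change -1.12 ± 1.07 SE, adjusted p = 0.37, edgeR quasi-likelihood test). The other 14 included both mitochondrial ribosomal RNAs, Hsp90aa1 and 6 of the 8 Rrp genes above 2 CPM, which serve ribosomal RNA processing in the nucleolus. The cause was not tested, and results that rest on these 3 libraries are given with and without them.

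The members took up less of the counts in every IL library than in any other. Their summed share was 3.22 ± 0.348% in IL_TNF_24h, 3.27 ± 0.294% in IL_24h, 2.79 ± 0.106% in IL_TNF_6h and 2.93 ± 0.336% in IL_6h (SD, n = 3 each). It was 5.51 ± 1.13% in TNF_24h, 5.43 ± 0.189% in TNF_6h and 8.03 ± 1.29% in Ctrl_0h. Single libraries held 6.64, 5.50 and 4.38% in TNF_24h, and 7.57, 9.49 and 7.04% in Ctrl_0h, so these 2 groups did not overlap in their shares, while the spread within TNF_24h was the widest after that of Ctrl_0h. The shares are of library totals without TMM scaling, and so are not on the scale of the tests below. On that scale only 7 members lay lower in all TNF_24h libraries than in all Ctrl_0h libraries, against 25.3% of all genes, and the members' median log2 fold change was -0.34. Wilson 95% intervals were at most ± 0.011 percentage points and cover counting error only. Pseudogene identifiers added 0.0248 to 0.1% of counts. Reads of these genes can be split with near-identical pseudogene copies, and how such reads were counted is not known here. Levels of single members are therefore uncertain to an unknown extent. A share of total RNA does not tell less ribosomal protein messenger RNA per cell from fewer cells that are rich in it.

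**Figure D1:**
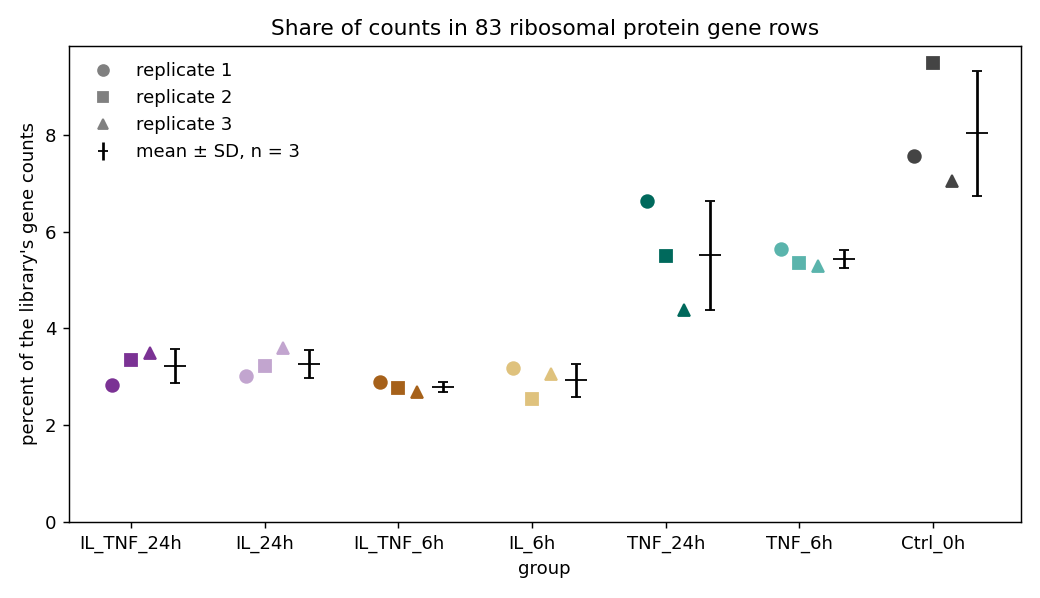
Share of all counts in the 83 ribosomal protein genes, in percent, for each library (points) with the group mean (bar) and SD. The 12 libraries with IL lie below the 9 without it, and Ctrl_0h lies highest.

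Levels between genes were compared per length, as CPM per kilobase of transcript in Ctrl_0h. The P stalk protein Rplp1 was highest with 5246, followed by Rpl13 with 3153, Rps14 with 3092, Rpl18 with 2884, Rps2 with 2762 and Rplp2 with 2712. Rps6, the substrate of the S6 kinases, had 1276 and Rpl22 had 305. The paralogs Rpl36al, with 385, and Rps27l, with 299, lay near Rpl22, and the 6 lowest of the 83 were Rpl22l1 with 91.7, Rps19bp1 with 52.0, Rpl7l1 with 36.6, Rps3a2 with 21.7, Rps4l with 11.3 and the Rpl24 identifier with 8.97. Within Ctrl_0h the highest library exceeded the lowest by a median of 1.28 times per member, within IL_6h by 1.37 times and within TNF_24h by 1.64 times.

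IL4 and IL13 for 6 h went with lower levels of nearly the whole family. In IL_6h against Ctrl_0h, 80 of 83 members were lowered and 2 raised at an adjusted p below 0.05, with a median log2 fold change of -1.53 over members and -0.01 over all genes. Of all 15581 genes tested, 31.6% were lowered and 32.8% raised. In each of the 80 lowered members all 3 IL_6h libraries lay below all 3 Ctrl_0h libraries, a pattern held by 30.4% of all genes, and both raised members lay wholly above, as did 33.6% of all genes. Both subunits took part, with 40 of 42 large-subunit genes (median -1.43), 31 of 31 small-subunit genes (median -1.70, range -2.25 to -1.10) and 3 of 3 stalk genes lowered.

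**Figure D2:**
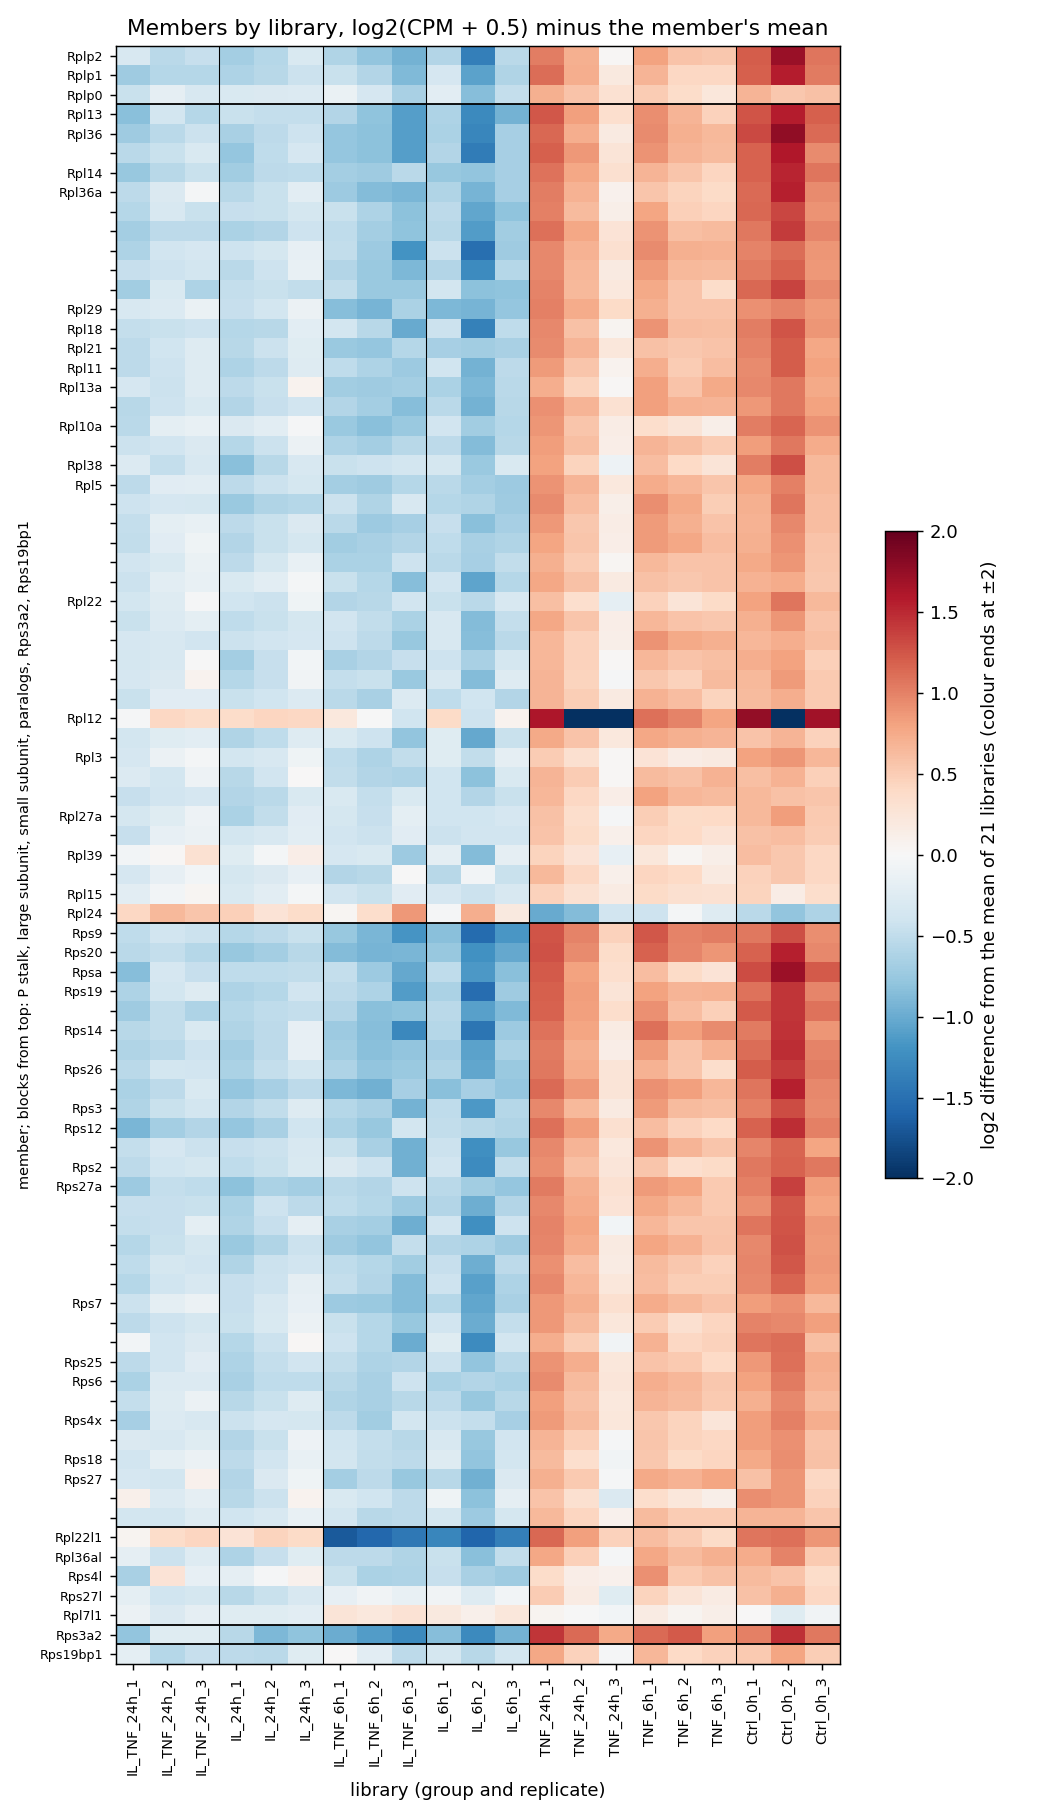
Log2(CPM + 0.5) of every member (down the page, by class) in every library (across, IL groups left of TNF groups and Ctrl_0h last), minus the member's mean over the 21 libraries. Blue is below and red above that mean, and only members named in the text carry a label. Most members are blue in the 12 IL libraries and red in the 9 others, Rpl12 is dark blue in 3 libraries without IL, and the Rpl24 identifier runs the other way.

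The stalk shows the size of the difference. Rplp1, which forms a dimer with Rplp2 on the stalk, had 839, 506 and 704 CPM in IL_6h against 2444, 3171 and 2175 CPM in Ctrl_0h (log2 fold change -1.93 ± 0.21 SE, adjusted p = 1.84e-07). Rplp2 had 315, 182 and 325 CPM in IL_6h against 1094, 1571 and 988 CPM in Ctrl_0h (-2.15 ± 0.24, adjusted p = 2.65e-07). Rplp0, the base that anchors these dimers, had 1218, 780 and 1010 CPM in IL_6h against 2249, 2055 and 2107 CPM in Ctrl_0h (-1.09 ± 0.15, adjusted p = 4.86e-06). In all 3 genes the 2 groups were well apart, and the difference was smallest for Rplp0.

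In the small subunit, Rpsa, also known as a cell-surface receptor for laminin, had 748, 484 and 598 CPM in IL_6h against 2646, 3487 and 2514 CPM in Ctrl_0h (-2.24 ± 0.22, adjusted p = 4.09e-08). Rps6 had 398, 410 and 397 CPM in IL_6h against 1083, 1277 and 1001 CPM in Ctrl_0h (-1.48 ± 0.15, adjusted p = 7.52e-08). Rps6 was the steadier of these 2 within IL_6h, and neither overlapped between groups. Rps19, mutated in human Diamond-Blackfan anaemia, fell by 2.08 on the log2 scale, Rps3, which lines the messenger RNA entry channel, by 1.81 and Rps27a, made as a fusion with ubiquitin, by 1.76.

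In the large subunit, Rpl13 had 629, 397 and 496 CPM in IL_6h against 2306, 2861 and 2210 CPM in Ctrl_0h (-2.28 ± 0.22, adjusted p = 3.2e-08). Rpl36 had 189, 118 and 184 CPM in IL_6h against 728, 1001 and 638 CPM in Ctrl_0h (-2.27 ± 0.22, adjusted p = 4.78e-08). Without the length term these were the largest falls in the 2 subunits and the stalk, while with it Rpl13 (-1.70) and Rpl36 (-1.48) lay behind Rpsa (-2.12). This order depends on the annotated transcript lengths. They were 1861 bases for Rpsa, with a longest coding sequence of 888, beside 780 for Rpl13 and 404 for Rpl36. Rpl5 and Rpl11, which bind the p53 regulator Mdm2 when outside the ribosome, fell by 1.47 and 1.61, Rpl13a, an interferon-responsive translational silencer in human monocytes, by 1.61, and Rpl38, needed for patterning of the mouse axial skeleton, by 1.47. The smallest called fall in the subunit was that of Rpl15, with 290, 272 and 292 CPM in IL_6h against 500, 407 and 466 CPM in Ctrl_0h (-0.68 ± 0.11, adjusted p = 2.71e-05). The identifier matched to Rpl24 went the other way, with 9.15, 15.8 and 10.7 CPM in IL_6h against 6.25, 5.17 and 5.91 CPM in Ctrl_0h (1.04 ± 0.22, adjusted p = 0.000445).

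At 24 h the difference was of the same kind. In IL_24h against Ctrl_0h, which shares its reference libraries with the comparison at 6 h, 80 of 83 members were lowered and 1, the Rpl24 identifier, raised (median -1.25 over members and -0.06 over all genes, of which 32.6% were lowered and 31.7% raised). In the 80 lowered members all IL_24h libraries lay below all Ctrl_0h libraries, as in 33.8% of all genes. Rpl7l1 and Rpl12 gave no call. Among the largest falls, Rpsa had 748, 754 and 764 CPM in IL_24h against 2646, 3487 and 2514 CPM in Ctrl_0h (-1.93 ± 0.21, adjusted p = 2.65e-07), Rpl36 fell by 1.96 and Rps20 by 1.92. Rps6, with 394, 434 and 435 CPM, stayed near its level in IL_6h. The smallest falls were those of Rpl15 (-0.50 ± 0.11, adjusted p = 0.000651), Rpl39 (-0.57 ± 0.18, adjusted p = 0.0102), which lines the exit tunnel, and Rps4l (-0.59 ± 0.19, adjusted p = 0.0111), and the calls of Rpl39 and Rps4l were lost without IL_24h replicate 1 (adjusted p = 0.0721 and 0.0665).

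**Figure D3:**
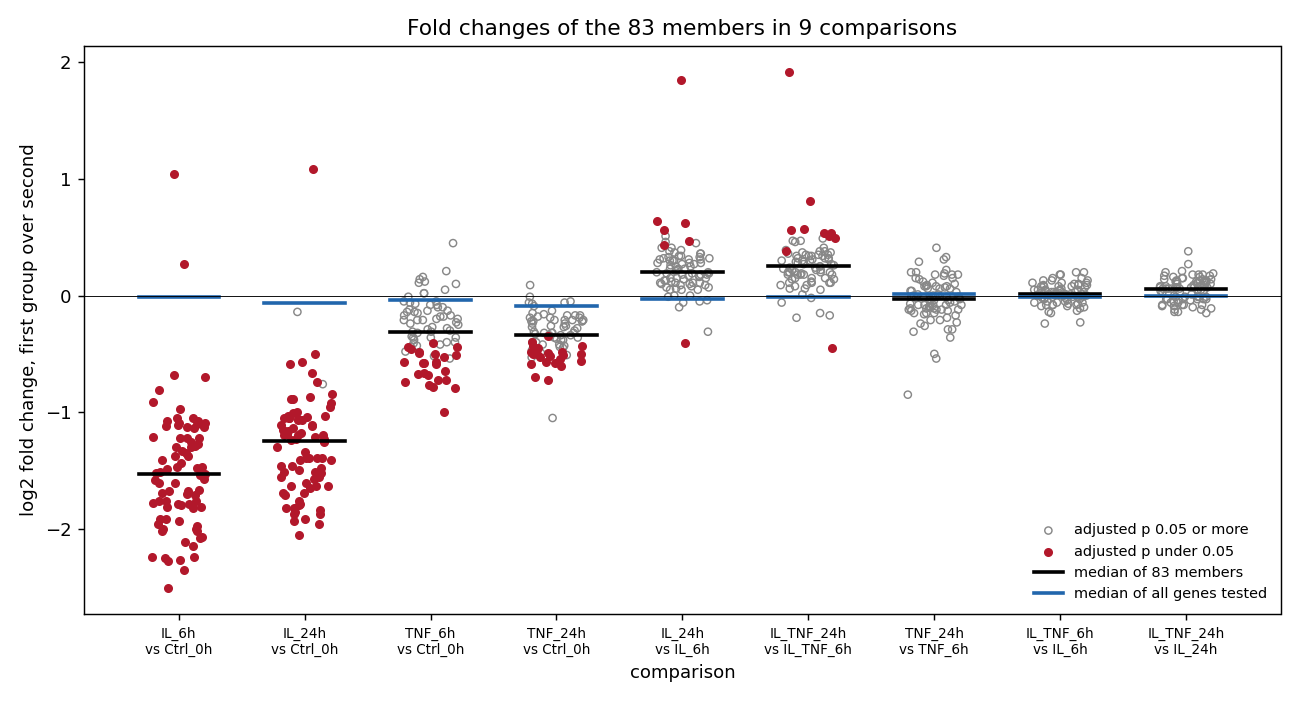
Log2 fold changes of the 83 members (points, filled where the adjusted p is under 0.05) in 9 comparisons, first group over second, with the median of members (black) and of all genes tested (blue). Against Ctrl_0h the members' medians are -1.53 and -1.25 with IL and -0.31 and -0.34 with TNF, and those of IL with TNF against IL are 0.01 and 0.06.

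Transcript length ran along with the comparisons that involve IL, and ribosomal protein genes are short. Of the 83 members, 72 lie in the shortest of 6 equal length classes (102 to 1068 bases). In IL_6h against Ctrl_0h, the median log2 fold change of genes that are not members was -0.71, -0.43, -0.17, 0.09, 0.35 and 0.64 from the shortest to the longest class, and 55.8% of the shortest and 16.3% of the longest were lowered. In IL_24h against Ctrl_0h the medians were -0.79, -0.53, -0.23, 0.06, 0.32 and 0.71. Members of the shortest class had medians of -1.53 at 6 h and -1.25 at 24 h, below those of their class. With a length term in the model, 75 members were lowered at 6 h, all of them among the 80. The median was -0.93 over members and -0.05 over all genes of that fit. At 24 h 73 were lowered, with a median of -0.72 over members and -0.13 over all genes. Of these, 72 were among the 80 and the other was Rpl7l1 (-0.29, adjusted p = 0.0039). The share of all genes lowered with the length term is not given here. With it the sign turned for Rps27l at 6 h (0.05) and for Rpl39 (0.08), Rpl15 (0.03) and Rpl22l1 (0.03) at 24 h. Whether the length trend came from the cells, from the RNA or from the library preparation was not tested. With TNF alone the trend was small, with medians of -0.11 at 6 h and -0.21 at 24 h in the shortest class and -0.02 and 0.02 in the longest. The length term took the members' median to -0.19 in TNF_6h and -0.19 in TNF_24h against Ctrl_0h, where it was -0.31 and -0.34 without the term.

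**Figure D4:**
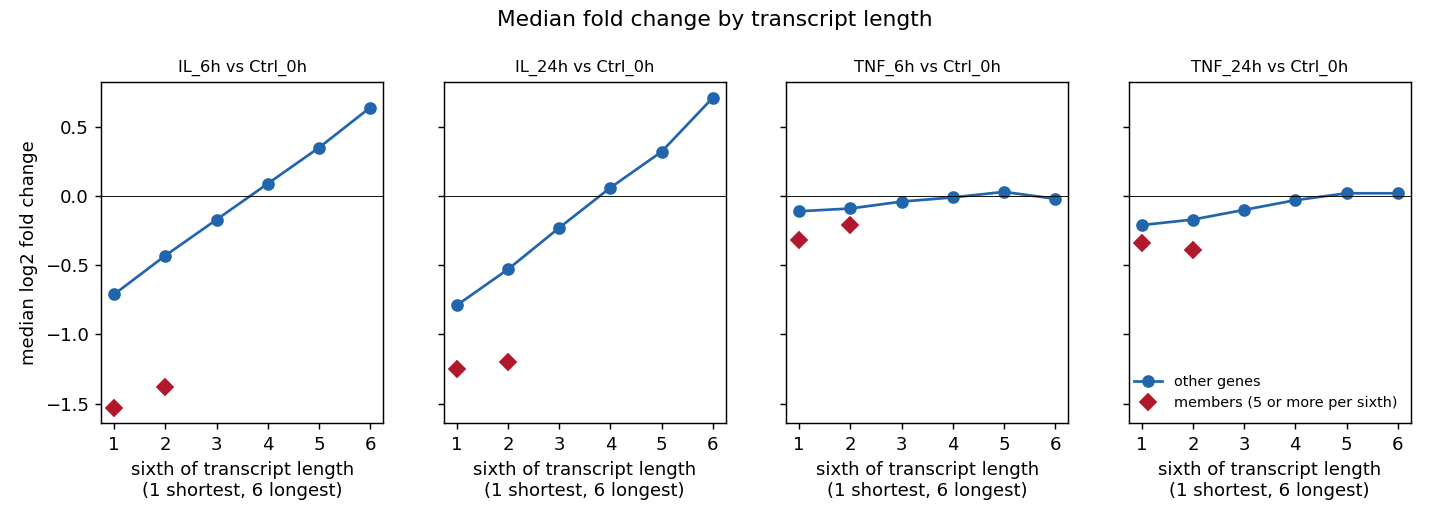
Median log2 fold change by transcript length class (1 shortest, 6 longest) for genes that are not members (line) and for members (diamonds, classes with at least 5), in the 4 comparisons with Ctrl_0h. With IL the line climbs from -0.71 to 0.64 at 6 h and from -0.79 to 0.71 at 24 h, and the members of the shortest class lie below it.

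TNF alone gave a smaller difference, which at 24 h rested on a few libraries. In TNF_6h against Ctrl_0h, 25 of 83 members were lowered and none raised (median -0.31 over members and -0.04 over all genes, of which 20.4% were lowered and 18.8% raised). An unadjusted p below 0.05 was found for 38 of the 83 members and for 7388 of all 15581 genes, which are similar shares. The lowered members were 11 of 42 large-subunit genes, 11 of 31 small-subunit genes, 2 of 3 stalk genes and the paralog Rpl22l1. In 44 members all TNF_6h libraries lay below all Ctrl_0h libraries, as they did in 24.0% of all genes. Counts from fits with libraries left out lack the shares of all genes called in those fits, and so compare only the fits. Without Ctrl_0h replicate 2, TNF_6h replicate 2 or TNF_6h replicate 3, 11 members were lowered in each case, and without 1 of 4 IL libraries (IL_6h replicate 3, IL_TNF_6h replicate 2, IL_24h replicate 2, IL_TNF_24h replicate 3) 16 were. With the 3 libraries short of Rpl12 left out, 20 were lowered.

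Rpsa had 1636, 1392 and 1286 CPM in TNF_6h against 2646, 3487 and 2514 CPM in Ctrl_0h (-1.0 ± 0.21, adjusted p = 0.000756). Rpl10a, a large-subunit protein at the L1 stalk, had 525, 491 and 445 CPM in TNF_6h against 835, 920 and 770 CPM in Ctrl_0h (-0.79 ± 0.15, adjusted p = 0.000396). Rplp1 had 1704, 1424 and 1420 CPM in TNF_6h against 2444, 3171 and 2175 CPM in Ctrl_0h (-0.78 ± 0.20, adjusted p = 0.005). None of these 3 genes overlapped between groups, and each was still called without the 3 libraries short of Rpl12 (adjusted p = 0.00174, 0.000332 and 0.0111). Rpl36a fell by 0.77, and small called falls were those of Rps4x (-0.44, adjusted p = 0.0223), Rpl21 (-0.44, adjusted p = 0.0229) and Rps25 (-0.41, adjusted p = 0.0325), all 3 lost without Ctrl_0h replicate 2 (adjusted p of 0.0902 to 0.146). With the 3 libraries short of Rpl12 left out, the log2 fold changes were -0.36 for Rps4x, -0.33 for Rpl21 and -0.31 for Rps25. Rps6 had 1024, 980 and 904 CPM in TNF_6h, and 1 of these values lay within the range of Ctrl_0h.

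In TNF_24h against Ctrl_0h, 23 of 83 members were lowered and none raised (median -0.34 over members and -0.09 over all genes, of which 24.3% were lowered and 20.9% raised). The share of members lowered is close to that of all genes. An unadjusted p below 0.05 was found for 36 of the 83 members, a smaller share than the 8141 of all 15581 genes. In 7 members all TNF_24h libraries lay below all Ctrl_0h libraries, against 25.3% of all genes. Rplp2 had 964, 776 and 481 CPM in TNF_24h against 1094, 1571 and 988 CPM in Ctrl_0h (-0.72 ± 0.23, adjusted p = 0.0165). Rpl36 had 648, 482 and 331 CPM in TNF_24h against 728, 1001 and 638 CPM in Ctrl_0h (-0.70 ± 0.21, adjusted p = 0.0123). Rpsa had 2503, 1873 and 1345 CPM in TNF_24h (-0.60 ± 0.21, adjusted p = 0.0255). Among the smallest called falls were those of Rps18 (-0.43), Rps27l (-0.40) and Rpl27a (-0.35, adjusted p = 0.0499). TNF_24h replicate 1 was the highest and replicate 3 the lowest of its group for Rplp2, Rpl36 and Rpsa, and for Rpl36 the first of these lay within the range of Ctrl_0h. The counts with libraries left out that follow again lack the shares of all genes called in the same fits, and compare only the fits. The count of lowered members was 62 without TNF_24h replicate 1, 9 without replicate 2, 1 without replicate 3 and 2 without Ctrl_0h replicate 2, and it lay between 9 and 15 without Ctrl_0h replicate 1 or any 1 of the 12 IL libraries. With the 3 libraries short of Rpl12 left out, which leaves 1 TNF_24h library, none was lowered and the median was 0.05. TNF_24h against TNF_6h, within TNF alone, gave no call (median -0.03, against 12.7% of all genes raised and 10.8% lowered). An unadjusted p below 0.05 was found for 5 members, against 5324 of all 15581 genes, and the DESeq2 Wald test called 3 members lowered. Without TNF_24h replicate 3, 4 members were raised, and without the 3 libraries short of Rpl12, 6 were raised and the median was 0.26.

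Adding TNF to IL4 and IL13 left the family without a call at either time. In IL_TNF_6h against IL_6h no member was called by edgeR or by DESeq2 and none had an unadjusted p below 0.05, while 7.11% of all genes were raised and 6.99% lowered. Log2 fold changes of members ran from -0.24 to 0.20 around a median of 0.01. In IL_TNF_24h against IL_24h the count was again 0 by both tools and 0 at an unadjusted p below 0.05 (1 raised where these 2 groups alone were fitted), with 6.02% of all genes raised and 5.06% lowered, and the range was -0.15 to 0.38 around 0.06. Rpl3, at the peptidyl transferase center, gave -0.24 at 6 h (adjusted p = 0.297), and Rps3a2 gave 0.38 at 24 h (adjusted p = 0.337). The shift of this effect between 6 h and 24 h had no call either (median 0.04, unadjusted p below 0.05 for 0 members, against 1.91% of all genes raised and 1.78% lowered). These comparisons lie within library sets.

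The effect of TNF in the presence of IL was also set against its effect without IL, both taken relative to libraries without TNF. At 6 h the difference of effects was positive for 4 members and negative for none (median 0.34 over members, with 9.24% of all genes called positive and 9.15% negative). An unadjusted p below 0.05 was found for 20 of 83 members, a smaller share than the 4900 of all 15581 genes. Rpsa, with 1.08 ± 0.29 (adjusted p = 0.0142), had 645 CPM in IL_TNF_6h and 610 CPM in IL_6h, beside 1438 CPM in TNF_6h and 2882 CPM in Ctrl_0h. The others were Rpl14 (0.81 ± 0.22, adjusted p = 0.0142), Rps26 (0.74 ± 0.23, adjusted p = 0.0317) and Rps12 (0.71 ± 0.24, adjusted p = 0.0445). At 24 h the 4 were Rpl38 (0.78 ± 0.28, adjusted p = 0.0477), Rpl22 (0.65 ± 0.23, adjusted p = 0.0464), Rpl3 (0.58 ± 0.18, adjusted p = 0.0262) and Rpl27a (0.56 ± 0.20, adjusted p = 0.0461), with a median of 0.39 over members and 11.5% of all genes called positive and 12.5% negative. With libraries left out, counts are given without the shares of all genes called in the same fits, and compare only the fits. The count at 6 h was 1 without IL_TNF_6h replicate 1, 11 without TNF_24h replicate 3, 2 without Ctrl_0h replicate 2, and moved by over 1.5 times with 15 of the 21 libraries left out in turn. The count at 24 h was 26 without TNF_24h replicate 1, 0 without Ctrl_0h replicate 2 and moved as much with 20 of the 21, and without the 3 libraries short of Rpl12 no member was called at 24 h. With the length term the members' median was 0.19 at 6 h and 0.20 at 24 h. Both counts of 4 are smaller shares of the members than the shares called among all genes. The reference of the effect without IL was at 0 h, so that effect also carries time in culture, while the effect under IL does not.

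In IL_24h against IL_6h, 6 members were raised and 1 lowered (median 0.20 over members and -0.03 over all genes, of which 12.2% were raised and 11.8% lowered). In IL_TNF_24h against IL_TNF_6h, 9 were raised and 1 lowered (median 0.25 over members and -0.01 over all genes, of which 15.4% were raised and 13.3% lowered). The shares of members raised, 7.23% and 10.8%, were below those of all genes. Both comparisons cross the library sets, so time and set cannot be told apart in them. In 20 members all IL_24h libraries lay above all IL_6h libraries, against 21.9% of all genes. In 42 members all IL_TNF_24h libraries lay above all IL_TNF_6h libraries, against 21.5% of all genes. Rpl29 of the large subunit had 256, 275 and 324 CPM in IL_24h against 189, 185 and 206 CPM in IL_6h (0.56 ± 0.13, adjusted p = 0.00392), and 283, 292 and 323 CPM in IL_TNF_24h against 195, 186 and 227 CPM in IL_TNF_6h (0.56 ± 0.13, adjusted p = 0.00322). It was higher at 24 h in every library of both comparisons. Rps9 was higher by 0.64 and 0.51 and Rps7 by 0.43 and 0.54 in the same 2 comparisons. For fits with libraries left out, the shares of all genes called are not given, so their counts compare only the fits. Left-out libraries of the compared groups took the first count to between 2 and 8 (3 without IL_24h replicate 2, 2 without IL_6h replicate 2 or 3 or IL_24h replicate 3) and the second to between 4 and 12 (5 without IL_TNF_6h replicate 2 or 3, 4 without IL_TNF_24h replicate 2 or 3). The second count was 18 without the 3 libraries short of Rpl12, and 19 without IL_TNF_24h replicate 1, IL_TNF_6h replicate 3, IL_6h replicate 2 and Ctrl_0h replicate 2 together.

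The paralogs did not follow one pattern. Rpl22l1, a paralog of Rpl22 whose messenger RNA is repressed by Rpl22 in the mouse, had the largest fall of all 83 members at 6 h without the length term, with 8.57, 6.93 and 8.10 CPM in IL_6h against 46.4, 47.4 and 40.7 CPM in Ctrl_0h (-2.51 ± 0.16, adjusted p = 1.59e-10). At 24 h it had 26.4, 29.9 and 28.6 CPM in IL_24h (-0.66 ± 0.15, adjusted p = 0.000678), so that IL_24h lay above IL_6h by 1.85 ± 0.16 (adjusted p = 3.76e-08). With TNF added it had 22.7, 28.3 and 29.5 CPM in IL_TNF_24h against 6.43, 6.98 and 7.79 CPM in IL_TNF_6h (1.92 ± 0.16, adjusted p = 1.33e-08). No library of the earlier time reached one of the later time in either comparison. With the length term the fall of Rpl22l1 at 6 h was -1.77 (adjusted p = 4.73e-10). It lay behind Rps20 (-2.63, with an uncertain length), Rpsa (-2.12) and Rps3a2 (-1.78), an order that depends on the annotated lengths. Rpl22 itself had 158 ± 11.3 CPM in IL_6h against 385 ± 59.4 CPM in Ctrl_0h (SD, n = 3 each; -1.29 ± 0.17, adjusted p = 1.54e-06). The CPM of Rpl22l1, not corrected for length, were 4.98% of those of Rpl22 in IL_6h and 16.3% in IL_24h, against 11.7% in Ctrl_0h.

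Rpl7l1, a paralog of Rpl7, had 117, 110 and 119 CPM in IL_6h against 103, 85.9 and 97.1 CPM in Ctrl_0h (0.27 ± 0.09, adjusted p = 0.0124), and this call was lost without Ctrl_0h replicate 2 (adjusted p = 0.0656), with the length term (adjusted p = 0.129), without the filter on low counts (adjusted p = 0.134) and in the fit of the 2 groups alone (adjusted p = 0.143). It had 85.8, 86.1 and 88.0 CPM in IL_24h, below IL_6h (-0.41 ± 0.09, adjusted p = 0.00177), and likewise 89.2 ± 5.47 CPM in IL_TNF_24h against 122 ± 3.53 CPM in IL_TNF_6h (SD, n = 3 each; -0.45 ± 0.09, adjusted p = 0.000599). Rpl22l1 was thus higher and Rpl7l1 lower at 24 h than at 6 h under IL, where time and library set cannot be told apart. Rps27l, a p53 target that replaces Rps27, had 87.5 ± 6.41 CPM in IL_6h against 142 ± 14.4 CPM in Ctrl_0h (-0.70 ± 0.14, adjusted p = 0.00029). Rpl36al, the paralog of Rpl36a, fell by 1.35 in IL_6h and by 1.20 in IL_24h, and Rps4l by 1.21 in IL_6h. Rps3a2, whose reads cannot be told from those of its near-identical parent gene with certainty, had 3.38 ± 0.585 CPM in IL_6h against 17.3 ± 3.23 CPM in Ctrl_0h (-2.35 ± 0.22, adjusted p = 2.06e-08). Rps19bp1, the binding partner that is no ribosomal protein, fell by 1.05 at both times.

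**Figure D5:**
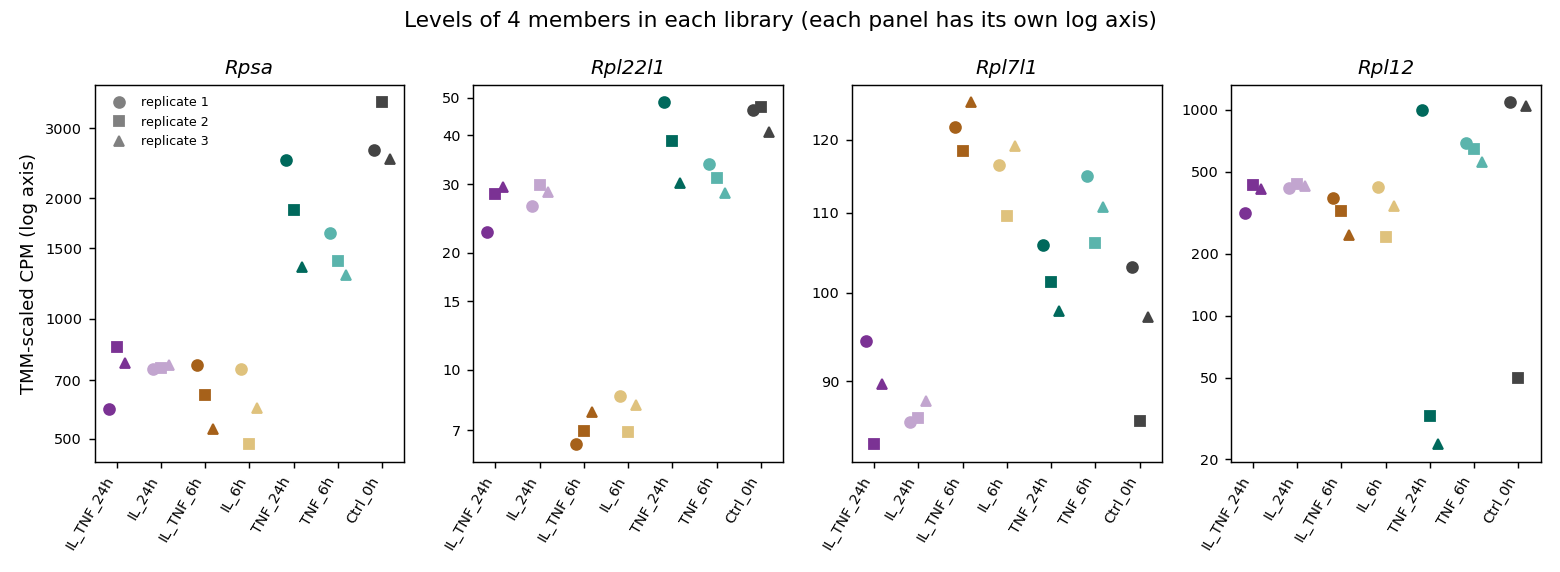
TMM-scaled CPM on log axes of Rpsa, Rpl22l1, Rpl7l1 and Rpl12 in each library (points, shape by replicate number), by group from the IL groups to Ctrl_0h. Rpsa is lower in all IL libraries than in all others, Rpl22l1 is below 10 CPM in IL_6h and IL_TNF_6h alone, Rpl7l1 has its highest group means there, and Rpl12 lies between 23.7 and 49.6 CPM in 3 libraries.

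Members whose annotated start lies in a pyrimidine run (n = 13) had median log2 fold changes of -1.69 in IL_6h, -1.41 in IL_24h, -0.32 in TNF_6h and -0.40 in TNF_24h, each against Ctrl_0h, and the other 48 had -1.46, -1.20, -0.26 and -0.32. The split needs a C at an annotated start. A run that begins just after that base, as in Rpl12 and Rpl22l1, therefore counts among the other 48. It thus does not separate messenger RNAs with and without a TOP element, and a link between such runs and the differences was not tested. Both kinds included large and small differences. Rps6 (CTCTTTTTC at its start) fell by 1.48 in IL_6h and Rpl15, with the longest run shown, by 0.68, while Rpsa, with no run at the annotated start, fell by 2.24.

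Other parts of the ribosome that lie outside the naming rule were lowered as well. Fau, a small-subunit protein made as a fusion with a ubiquitin-like protein, had 433 ± 135 CPM in IL_6h against 1880 ± 357 CPM in Ctrl_0h (SD, n = 3 each; -2.12 ± 0.24, adjusted p = 3.32e-07). Rack1, a scaffold on the small subunit, fell by 1.26 in IL_6h, and both were lowered in IL_24h too. Neither was called with TNF alone. Of 18 translation factors, many of them with TOP messenger RNAs, 12 were lowered and 1 raised in IL_6h, and 13 were lowered and 2 raised in IL_24h, beside 3 lowered and 1 raised in TNF_6h and 2 lowered in TNF_24h, where the shares lowered among all genes were 31.6%, 32.6%, 20.4% and 24.3%. The exchange factor subunits Eef1d (-1.68 ± 0.17, adjusted p = 5.24e-08) and Eef1b2 (142 ± 3.21 CPM in IL_6h against 431 ± 55.9 CPM in Ctrl_0h, adjusted p = 3.44e-08) fell most in IL_6h, and Eif4a2, a helicase paralog, rose (0.86 ± 0.15, adjusted p = 5.08e-05). The elongation factor Eef1a1, the most abundant of the list, gave -0.08 ± 0.11 in IL_6h (adjusted p = 0.565). The length trend given above applies to the IL comparisons of this paragraph too.

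Of 43 tested assembly factors, 17 were raised and 8 lowered in IL_6h (median 0.14), 10 raised and 14 lowered in IL_24h (median -0.17), 12 raised and 7 lowered in TNF_6h and 14 raised and 3 lowered in TNF_24h, each against Ctrl_0h. Beside them stand the shares of all genes, 32.8% raised and 31.6% lowered in IL_6h, 31.7% and 32.6% in IL_24h, 18.8% and 20.4% in TNF_6h and 20.9% and 24.3% in TNF_24h. Tsr1, a late small-subunit factor, had 20.2 ± 0.356 CPM in IL_6h against 3.11 ± 1.77 CPM in Ctrl_0h (2.70 ± 0.30, adjusted p = 2.88e-07), and Heatr1, which acts in early ribosomal RNA processing, had 78.8 ± 8.60 against 15.2 ± 1.44 CPM (2.37 ± 0.12, adjusted p = 7.02e-12). Nop10 and Nhp2, small proteins that guide pseudouridine formation, fell by 1.30 and 1.27. Among 10 tested RNA polymerase I genes, 3 were raised and 5 lowered in IL_6h, where the large subunit Polr1a rose (1.18 ± 0.10, adjusted p = 9.43e-09) and the small subunit Polr1d fell (-1.36 ± 0.13, adjusted p = 5.49e-08). The IL comparisons carry the length trend given above, in which short genes fell and long genes rose. Values of these 2 lists with the length term are not given here, so length and function cannot be told apart. Rrp1 and Rrp12 of the assembly list are low in the 3 libraries named above.

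Among 18 genes of mTORC1 signaling and TOP control, 12 were raised and 3 lowered in IL_6h and 12 raised and 5 lowered in IL_24h, beside 3 raised and 2 lowered in TNF_6h and 5 raised and 1 lowered in TNF_24h. Of all genes, 32.8% were raised in IL_6h, 31.7% in IL_24h, 18.8% in TNF_6h and 20.9% in TNF_24h. Larp1, which binds TOP messenger RNAs, had 156 ± 7.27 CPM in IL_6h and 283 ± 21.1 CPM in TNF_24h, against 64.8 ± 0.908 CPM in Ctrl_0h (1.27 ± 0.12, adjusted p = 2.75e-08, and 2.12 ± 0.12, adjusted p = 4.58e-11). Mtor had 74.5 ± 4.33 CPM in IL_6h against 24.5 ± 2.65 CPM in Ctrl_0h (adjusted p = 1.44e-09). Of the translation repressors, Eif4ebp2 rose (2.03 ± 0.22, adjusted p = 1.91e-07) and Eif4ebp1 fell (-1.19 ± 0.19, adjusted p = 2.04e-05) in IL_6h. Myc, which drives ribosomal genes, had 30.7 ± 2.63 CPM in IL_6h and 4.98 ± 0.244 CPM in TNF_6h, against 12.8 ± 0.514 CPM in Ctrl_0h (1.26 ± 0.17, adjusted p = 3.09e-06, and -1.37 ± 0.18, adjusted p = 4.88e-06). Several of these genes are long, and the IL comparisons carry the length trend given above.

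Cell cycle genes were lowered in the comparisons with Ctrl_0h and raised between 6 h and 24 h. Of 21 tested, 21 were lowered in IL_6h, 17 in IL_24h, 21 in TNF_6h and 10 in TNF_24h, where 31.6%, 32.6%, 20.4% and 24.3% of all genes were lowered. They summed to 1460 to 1560 CPM in IL_24h against 399 to 401 CPM in IL_6h. In that comparison 21 of 21 were raised (median 2.81), against 12.2% of all genes, and ribosomal proteins had a median of 0.20. It crosses the library sets, so time and set cannot be told apart in it. In TNF_24h the cell cycle genes summed to 1510 to 1760 CPM against 565 to 610 CPM in TNF_6h. There 19 of 21 were raised, against 12.7% of all genes, and no ribosomal protein gene was called. A link between the cell cycle genes and the ribosomal protein genes was not tested.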

How the data were processed

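The authors deposited unnormalized whole-number counts for each gene. The tools named in the submitters' processing notes are edgeR 3.28.1, Subread 1.6.3, featureCounts and TopHat2 2.0.12, with the build GRCm38. Neither annotation nor strand setting nor pair counting is given in the sources used here. Here, symbols came from gene tables (32832 of 47069 identifiers, 2679 older symbols updated), and 15581 identifiers, with 99.9% of all counts, passed filterByExpr. All 21 libraries were fitted together in edgeR 4.0.16 (R 4.3.3; TMM scaling, robust quasi-likelihood F test, 1 term per group), with p-values adjusted by Benjamini and Hochberg over all genes tested and a threshold of 0.05; the biological coefficient of variation was 22.8%. Levels are TMM-scaled CPM, and SE is of the log2 fold change. The length term was a loess curve (span 0.5) on 12852 genes with a known length. DESeq2 1.42.0 was an alternative. The fit was tested on simulated data.

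Members and gene lists were chosen with earlier results of these data known. The genes named are the 4 called members with the highest and the 4 with the lowest fold change per pair of groups (3 and 3 for differences of effects), the stalk, the paralogs and 9 members with known other roles. Rpl12, and genes named only for their level, fall outside this rule and were chosen after their values were seen. Totals of 28063252 to 48654300 counts per library set the precision. Same-numbered replicates were not treated as pairs, since the labels do not say that a number marks a shared culture, animal or day. Correlations of their deviations ran from -0.49 to 0.62. They cannot show whether pairs exist, because a single odd library can set the deviations within its group. Some genes of these lists are not reported here.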

Additional observations from a re-analysis of the deposited data

Results flagged for a closer look

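In all, 8 members were called in the difference between the TNF effect under IL and that without IL. The test was edgeR's quasi-likelihood fit with adjusted p-values. The effect without IL was taken against Ctrl_0h at 0 h and so also carries time in culture. The effect under IL was taken at one time, so treatment and time cannot be told apart in the difference. Of all genes, 9.24% were called positive and 9.15% negative at 6 h, and 11.5% and 12.5% at 24 h, larger shares than the 4 of 83 members at each time. At 6 h these were Rpsa (1.08, adjusted p = 0.0142), Rpl14 (0.81, adjusted p = 0.0142), Rps26 (0.74, adjusted p = 0.0317) and Rps12 (0.71, adjusted p = 0.0445). With each of the 21 libraries left out in turn, the call was lost 1 time for Rpsa (range 0.88 to 1.19), 0 times for Rpl14 (0.67 to 0.91), 13 times for Rps26 (0.56 to 0.83) and 18 times for Rps12 (0.53 to 0.82). At 24 h these were Rpl38 (0.78, adjusted p = 0.0477), Rpl22 (0.65, adjusted p = 0.0464), Rpl3 (0.58, adjusted p = 0.0262) and Rpl27a (0.56, adjusted p = 0.0461), and the call was lost 19, 19, 10 and 18 times. Under the 10 other alternatives it was lost 0 times for Rpsa, 1 time for Rpl14 (lowest 0.52, highest adjusted p = 0.101), 2 for Rps26, 4 for Rps12, 5 for Rpl38, 6 for Rpl22, 3 for Rpl3 and 6 for Rpl27a, with the lowest 24 h difference at 0.21. Rpl14 had 271 ± 16.7 CPM in IL_TNF_6h and 254 ± 11.6 CPM in IL_6h, beside 624 ± 55.4 CPM in TNF_6h and 1027 ± 174 CPM in Ctrl_0h (SD, n = 3 each).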

How the results depend on the processing

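The counts of members lowered by IL against Ctrl_0h, 80 at each time, stayed within 1.5 times under every alternative run, with the length term giving the lowest. Scaling by TMM without the members moved no count by over 1.5 times, and neither it nor DESeq2 size factors or the Wald test reversed a named member. Counts of 83 members that moved by more follow, with no cause tested. They are given without the shares of all genes called in the same fits. They therefore compare the fits with each other and not the members with all genes.
DESeq2 size factors raised 1 member in TNF_6h against Ctrl_0h. The DESeq2 Wald test raised 1 there, lowered 3 in TNF_24h against TNF_6h and gave 10 positive differences of the TNF effect at 6 h. Without a filter on low counts, 13 were lowered in TNF_24h against Ctrl_0h, 1 lowered in TNF_24h against TNF_6h, 1 raised in IL_6h against Ctrl_0h and 0 lowered in IL_24h against IL_6h. With a minimum of 1 CPM in 3 libraries, 35 were lowered in TNF_24h against Ctrl_0h and 9 differences at 6 h were positive. With only the compared groups fitted, 2 were raised in TNF_6h against Ctrl_0h, 0 lowered in TNF_24h against Ctrl_0h, 1 lowered in TNF_24h against TNF_6h, 1 raised in IL_6h against Ctrl_0h, 1 raised in IL_TNF_24h against IL_24h and 0 differences at 24 h were positive.
With the replicate block, 1 was lowered in TNF_24h against TNF_6h and 1 difference at 24 h was positive, and the other counts stayed within 1.5 times (26 lowered in TNF_6h and 24 in TNF_24h against Ctrl_0h). The numbers share no stated source.
With the length term, 2 were raised in TNF_6h against Ctrl_0h, 2 raised and 1 lowered in TNF_24h against TNF_6h, 1 raised in IL_6h against Ctrl_0h, 8 differences at 6 h and 1 at 24 h were positive, 13 raised and 2 lowered in IL_24h against IL_6h, and 2 lowered in IL_TNF_24h against IL_TNF_6h. Log2 fold changes turned to 0.05 for Rps27l in IL_6h, and to 0.08 for Rpl39, 0.03 for Rpl15 and 0.03 for Rpl22l1 in IL_24h, each against Ctrl_0h.
Without 4 libraries chosen for standing apart in earlier results (IL_TNF_24h replicate 1, IL_TNF_6h replicate 3, IL_6h replicate 2, Ctrl_0h replicate 2), 2 were raised and 11 lowered in TNF_6h and 2 lowered in TNF_24h against Ctrl_0h, 4 lowered in TNF_24h against TNF_6h, 1 raised in IL_TNF_24h against IL_24h, 2 differences at 6 h and 1 at 24 h were positive, and 19 raised in IL_TNF_24h against IL_TNF_6h. Without the 3 libraries short of Rpl12, chosen after seeing the data, with the lone TNF_24h library assumed to vary like other groups, 0 were lowered in TNF_24h against Ctrl_0h, 6 raised in TNF_24h against TNF_6h, 1 raised in IL_6h against Ctrl_0h, 0 differences at 24 h were positive, 2 lowered in IL_24h against IL_6h and 18 raised in IL_TNF_24h against IL_TNF_6h, and Rps27l (0.01) and Rpl27a (0) in TNF_24h turned sign or reached 0.
With single libraries left out, counts ran from 0 to 2 raised and 11 to 35 lowered in TNF_6h, 1 to 62 lowered in TNF_24h, 1 to 2 raised and 80 to 80 lowered in IL_6h and 78 to 80 lowered in IL_24h, each against Ctrl_0h. They ran from 0 to 4 raised and 0 to 3 lowered in TNF_24h against TNF_6h, 1 to 11 positive differences at 6 h and 0 to 26 at 24 h, 2 to 8 raised in IL_24h against IL_6h and 4 to 12 raised in IL_TNF_24h against IL_TNF_6h.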

Other observations

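Beside Rpl12, the genes low in Ctrl_0h replicate 2 and TNF_24h replicates 2 and 3 were named after their values were seen. Hsp90aa1, a chaperone, had 5.50 and 5.43 CPM in TNF_24h replicates 2 and 3 and 7.57 CPM in Ctrl_0h replicate 2, against 145 to 225 CPM in the other 18 libraries. Rrp1, a nucleolar assembly factor, had 11.6 and 11.6 CPM in the same TNF_24h libraries and 10.4 CPM in that Ctrl_0h library, against 145 to 362 CPM in the others. The mitochondrial ribosomal RNA mt-Rnr1 had 2.21 and 1.75 CPM in TNF_24h replicates 2 and 3 and 0.981 CPM in Ctrl_0h replicate 2. Rrp15, Rrp8, Rrp1b, Rrp7a and Rrp12 were the other Rrp genes on this list.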
